A study of Mus musculus with 4 samples.

Results

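The receptors examined here are 10 nuclear receptor genes of mouse, taken by gene symbol from 25239 gene IDs. They are the retinoid X receptors Rxra, Rxrb and Rxrg, the thyroid hormone receptors Thra and Thrb, the retinoic acid receptors Rara, Rarb and Rarg, and the RAR-related orphan receptors Rora and Rorb. Each had 1 row in each library, so no rows had to be summed. RNA from dissected E13.5 (embryonic day) retina was sequenced in 4 libraries, 2 of genotype control and 2 of genotype Isl1cKO, a conditional knockout of the LIM-homeodomain factor gene Isl1. The series asked how the retinal transcriptome differs when Isl1 is lost. The strain, the Cre driver, the alleles carried by the controls and the number of embryos per library are not given in the sources used here. Since nothing says that the libraries come from separate animals, the p-values measure only the spread between these samples, which may be technical.

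Nuclear receptors bind DNA and switch genes on or off according to whether their ligand is present. Retinoic acid receptors and thyroid hormone receptors bind their sites as heterodimers with a retinoid X receptor, recruiting corepressors without ligand and coactivators with it, whereas ROR proteins can bind DNA as monomers. In the developing retina Rxrg and the beta thyroid hormone receptor are known from cone precursors, Rxrg also from ganglion cells, and Rorb from progenitors and photoreceptor precursors.

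The libraries held 12.6 to 14.3 gigabases of aligned sequence each. Between 13554 and 13932 genes per library reached 1 TPM, a transcript level scaled to length and to a fixed sum per library. Isl1cKO replicate 2 was lowest in both respects. It also had 0.501 TPM of Xist, the RNA of the inactive X chromosome, against 209 to 287 TPM in the other libraries. Isl1 itself measured 242 and 201 TPM in control against 321 and 223 TPM under the Isl1cKO label. The targeted gene was thus not lower under that label, the tables give no value per exon, and every direction below rests on the labels.

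Promoter sequence bears on this group because Rarb is a known target of the ligand it binds and because Rxrg and Thrb had the lowest ratios between the groups. The stretches shown are the 100 bases before a RefSeq start site (assembly GRCm38.p6), read 5′ to 3′ on the gene's strand. Capitals mark matches, on either strand, to the receptor-binding hexamers AGGTCA and AGTTCA, to GGATTA, the core bound by the photoreceptor factors OTX2 and CRX, and, in Rarb, both arms of a direct repeat of GGTTCA and AGTTCA set 5 bases apart. For Rarb the start lies inside the gene on the minus strand (chr14:16575477-16575576). For Rxrg both starts in the RefSeq table are given, the outer one (chr1:167598262-167598361) and an inner one (chr1:167618165-167618264), both on the plus strand. For Thrb it is the outermost start (chr14:17660860-17660959, plus strand).
Rarb: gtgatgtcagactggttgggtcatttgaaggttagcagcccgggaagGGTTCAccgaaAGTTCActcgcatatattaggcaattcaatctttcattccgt
Rxrg outer start: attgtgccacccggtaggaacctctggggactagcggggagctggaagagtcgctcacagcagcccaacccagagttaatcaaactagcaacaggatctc
Rxrg inner start: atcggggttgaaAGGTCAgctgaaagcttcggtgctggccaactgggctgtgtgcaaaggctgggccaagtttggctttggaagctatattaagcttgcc
Thrb: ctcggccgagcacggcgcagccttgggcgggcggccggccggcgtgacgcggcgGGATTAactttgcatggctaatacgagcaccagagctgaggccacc

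That direct repeat, whose second arm also counts as a match to AGTTCA, began 53 bases before the Rarb start. It was found in 2 of 32851 RefSeq promoter windows of 300 bases, 0.00609% of them. That share holds for this exact spelling of the arms, and other spellings of such a repeat were not searched. It is thus no measure of how rare such repeats are. RefSeq windows (250 bases before to 50 after a start) were held for 9 of the 10 receptors, 18 windows in all, with none matched for Thra. AGGTCA was present in 5 of these windows, against 16.3% of all windows. AGTTCA was present in 4, against 14.0% of all windows. GGATTA was present in 1, that of Thrb, where it began 46 bases before the start, against 7.06% of all windows. These matches are descriptions of the sequence and not measured binding sites.

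The 10 receptors covered a wide range of levels. Averaged over the 4 libraries, they ran from 129 TPM for Rorb to 0.823 TPM for Rarg. The order after Rorb was Thra at 90.9 TPM, Rxrb at 77.5, Rara at 26.8, Rxra at 23.0, Thrb at 20.8, Rora at 9.83, Rarb at 6.97 and Rxrg at 6.43. The ranges over libraries of the neighbours Rara and Rxra overlapped, as did those of Rxra and Thrb and of Rarb and Rxrg. The ranges of all other neighbours in this order were apart. The plot of receptor levels by library shows Rorb and Thra well above their paralogs in each library.

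**Figure D1:**
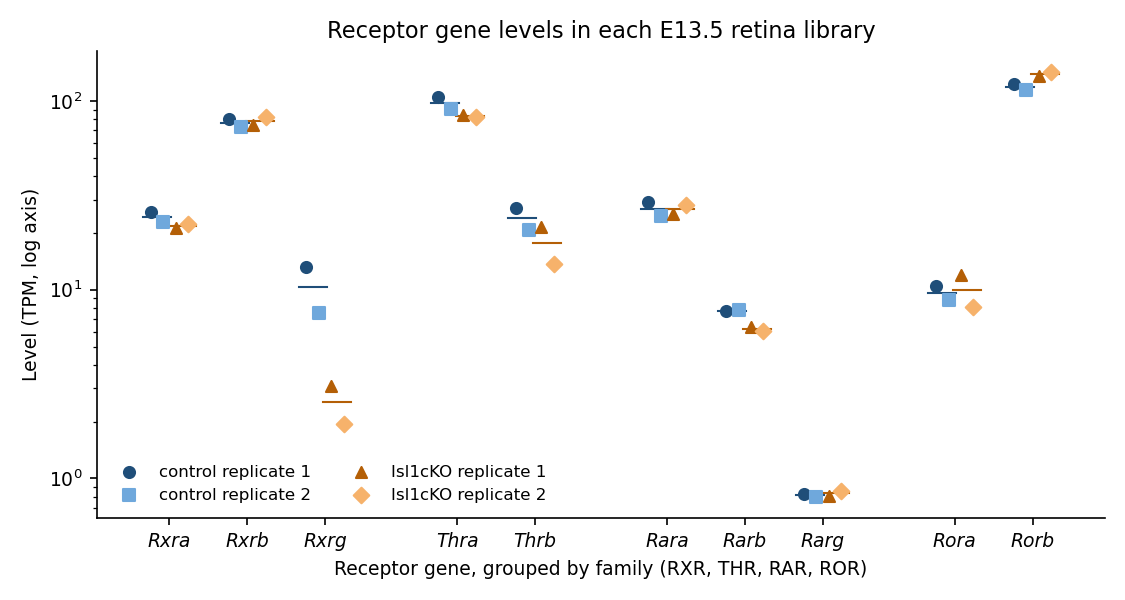
Level of each receptor in TPM (log axis) in the 4 libraries, grouped by family; points are libraries and short lines are group means of 2 libraries. Rxrg is the receptor whose groups lie farthest apart, with the controls at 13.1 and 7.56 TPM and the libraries labelled Isl1cKO at 3.10 and 1.95 TPM.

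Among the retinoid X receptors, the shared partners of the retinoic acid and thyroid hormone receptors, Rxrg (chromosome 1, 167598362 to 167639623, plus strand, mm10) had the widest difference between the groups. Control replicates 1 and 2 had 13.1 and 7.56 TPM of it, and Isl1cKO replicates 1 and 2 had 3.10 and 1.95 TPM. Both libraries labelled Isl1cKO were below both controls, and the controls differed 1.74-fold from each other. The means were 10.3 ± 3.93 TPM for control and 2.52 ± 0.815 TPM for Isl1cKO (SD, n = 2), 4.10-fold lower in the latter. On the log2(TPM + 1) scale, which understates differences of low genes, the log2 fold change was -1.66 (SE 0.30). Its p-value in limma was 0.00369 before adjustment and 0.169 after Benjamini-Hochberg adjustment over all tested genes, so Rxrg did not pass the threshold of 0.05.

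Rxrb (chromosome 17, 34031812 to 34038403), the most abundant RXR, measured 80.0 and 73.1 TPM in control against 74.8 and 82.2 TPM under the Isl1cKO label. The groups overlapped, with means of 76.6 ± 4.92 and 78.5 ± 5.22 TPM (SD, n = 2), and the log2 fold change of 0.04 (SE 0.10) changed sign without control replicate 2 or Isl1cKO replicate 2. Rxra (chromosome 2, 27677201 to 27763319) measured 25.7 and 22.9 TPM in control against 21.3 and 22.2 TPM under the Isl1cKO label. Its groups did not overlap, but control replicate 2 and Isl1cKO replicate 2 lay close together, and its log2 fold change of -0.15 (SE 0.10) gave 0.617 as its adjusted p-value in limma. The summed TPM of the 3 RXR genes was 111 ± 10.8 in control and 103 ± 5.10 in Isl1cKO (SD, n = 2), a smaller difference than the spread between the controls.

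Of the thyroid hormone receptors, Thra (chromosome 11, 98741785 to 98769006) encodes the widely expressed alpha receptor. It measured 105 and 91.4 TPM in control against 84.1 and 82.8 TPM under the Isl1cKO label. The groups did not overlap, and the log2 fold change was -0.23 (SE 0.10, adjusted p-value 0.478 in limma). The 3′ end of Thra overlaps by 1075 bases the receptor gene Nr1d1 on the opposite strand, which measured 8.16 and 7.61 TPM in control against 7.21 and 6.36 TPM under the Isl1cKO label. Whether strand was used in assigning reads to the pair is not given in the sources used here, so their reads may have been divided between them.

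Thrb (chromosome 14, 17660960 to 18038088), the receptor needed for green-sensitive cones, measured 27.2 and 20.8 TPM in control against 21.6 and 13.8 TPM under the Isl1cKO label. Isl1cKO replicate 1 lay between the controls, so the groups overlapped. The means were 24.0 ± 4.55 and 17.7 ± 5.51 TPM (SD, n = 2). The log2 fold change of -0.44 (SE 0.25) gave 0.580 as its adjusted p-value in limma. It was -0.14 without Isl1cKO replicate 2, -0.26 without control replicate 1 and -0.75 without Isl1cKO replicate 1. The tables hold 1 value per gene, so the 2 starts that RefSeq gives for Thrb cannot be told apart.

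Among the retinoic acid receptors, Rarb (chromosome 14, 16430840 to 17082331, minus strand), which carries the direct repeat shown above, measured 7.73 and 7.79 TPM in control against 6.31 and 6.05 TPM under the Isl1cKO label. Both groups were tight and did not overlap, with means of 7.76 ± 0.0437 and 6.18 ± 0.181 TPM (SD, n = 2). The log2 fold change was -0.29 (SE 0.08), with a p-value of 0.0172 in limma before adjustment and 0.298 after it. Rara (chromosome 11, 98937696 to 98974942), the most abundant RAR by TPM, measured 29.2 and 24.6 TPM in control against 25.2 and 28.1 TPM under the Isl1cKO label. Its groups overlapped fully, and its log2 fold change of -0.01 (SE 0.12) changed sign under median-ratio and upper-quartile scaling and without control replicate 1 or Isl1cKO replicate 1. Rarg (chromosome 15, 102234938 to 102257522) measured 0.829 and 0.800 TPM in control against 0.802 and 0.861 TPM under the Isl1cKO label. It was under the minimum of 1 TPM in 2 libraries required for testing and is the 1 receptor left out of the fit. With no such minimum its log2 fold change was 0.01 (SE 0.06).

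Rorb (chromosome 19, 18930609 to 19111196, minus strand), a receptor required for rods and for cone maturation, was the most abundant of the 10. It measured 123 and 115 TPM in control against 136 and 143 TPM under the Isl1cKO label. It was the 1 receptor for which both libraries labelled Isl1cKO were above both controls, with means of 119 ± 5.82 and 139 ± 4.83 TPM (SD, n = 2). The log2 fold change was 0.22 (SE 0.09), with a p-value of 0.0542 in limma before adjustment and 0.424 after it. Rora (chromosome 9, 68653786 to 69388246), its paralog, measured 10.4 and 8.82 TPM in control against 11.9 and 8.11 TPM under the Isl1cKO label. The 2 latter libraries held both its highest and its lowest value. The log2 fold change of 0.04 (SE 0.20) was 0.29 without Isl1cKO replicate 2, 0.15 without control replicate 1, -0.07 without control replicate 2 and -0.22 without Isl1cKO replicate 1.

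Counted together, 0 of the 9 receptors tested passed an adjusted p-value of 0.05 in limma, where 0.493% of the 13984 tested genes did, 0.465% lower and 0.0286% higher. Before adjustment 2 were under 0.05, Rxrg and Rarb, both lower in the libraries labelled Isl1cKO. The same limit was passed by 12.1% of tested genes, 8.92% in the lower direction. Among the 10 receptors 5 had groups that did not overlap, Rxra, Rxrg, Thra and Rarb lower and Rorb higher. In tested genes 44.9% did not overlap, 30% lower and 14.9% higher, so the receptors' count was near the background. The median log2 fold change of the 9 receptors was -0.15, against -0.05 over all tested genes, and 6 of 9 were negative, against 63.8%. Only Rxrg differed by 1 or more on the log2 scale, as did 1.64% of tested genes, and the other 8 lay within the range of the middle 90% of genes, -0.53 to 0.26. The plot of the differences shows Rxrg outside that range. The number of all genes called, 69, was 10 without control replicate 1, 14 without control replicate 2, 37 without Isl1cKO replicate 1 and 18 without Isl1cKO replicate 2, and the receptors called remained at 0 in each. With the replicate number as a block, 1.9% of tested genes and 1 receptor, Rxrg, were called (adjusted p-value 0.00802, against 0.0855 to 0.325 over the other alternatives and 0.103 to 0.521 as each library was left out), but no label ties the same-numbered libraries together.

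**Figure D2:**
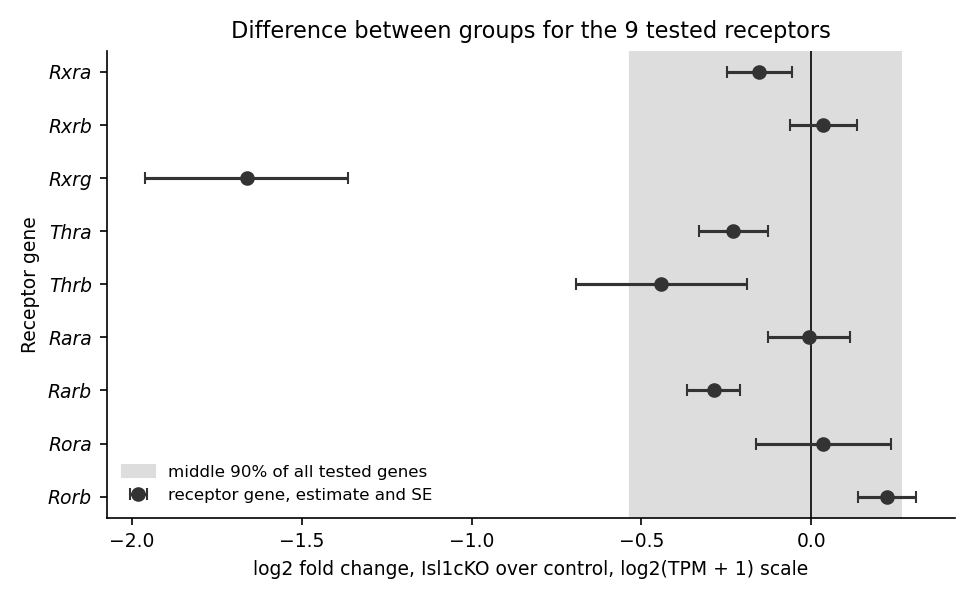
Log2 fold change of the libraries labelled Isl1cKO over control for the 9 tested receptors, on the log2(TPM + 1) scale, with points for the limma estimate and bars for its SE; the grey band spans the middle 90% of all tested genes, -0.53 to 0.26. Rxrg lies at -1.66 and the others lie inside the band.

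Paralogs were then compared within each library, where a ratio of TPM does not depend on the scaling between libraries. Rxrg made up 11.0% and 7.30% of the RXR total in the controls and 3.13% and 1.83% in the libraries labelled Isl1cKO. The share of Rxrb was 67.3% and 70.6% in the controls and 75.4% and 77.3% in the libraries labelled Isl1cKO, while that of Rxra lay between 20.9% and 22.1% in all 4. The Rxrg share was thus lower, and the Rxrb share higher, in both libraries labelled Isl1cKO. Rxrb exceeded Rxrg 6.10- and 9.66-fold in the controls and 24.1- and 42.2-fold in the libraries labelled Isl1cKO. Rxra exceeded Rxrg 1.96- and 3.03-fold in the controls and 6.85- and 11.4-fold in the libraries labelled Isl1cKO. Rxrb exceeded Rxra 3.11- and 3.19-fold in the controls and 3.52- and 3.69-fold in the libraries labelled Isl1cKO. All 3 RXR ratios thus had groups that did not overlap.

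In the other families the leading paralog kept its place in every library by TPM. Thra exceeded Thrb between 3.86- and 6.02-fold, with overlapping groups. Rorb exceeded Rora between 11.4- and 17.6-fold, also with overlapping groups, and made up between 91.9% and 94.6% of their sum. Rara exceeded Rarb 3.77- and 3.16-fold in the controls and 4.0- and 4.65-fold in the libraries labelled Isl1cKO, and exceeded Rarg between 30.7- and 35.2-fold. Rarb exceeded Rarg 9.33- and 9.74-fold in the controls and 7.87- and 7.02-fold in the libraries labelled Isl1cKO. Of the 8 pairs compared, 5 had groups that did not overlap. Among single tested genes 44.9% had groups that did not overlap. The pairs within the RXR and RAR families share genes, so the 8 are not independent and the count is not a result about paralogs. The two-sided exact permutation test gave each of these 5 a p-value of 0.333, the smallest that 2 against 2 libraries allow, and 0.533 after Benjamini-Hochberg adjustment over the 8 pairs.

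**Figure D3:**
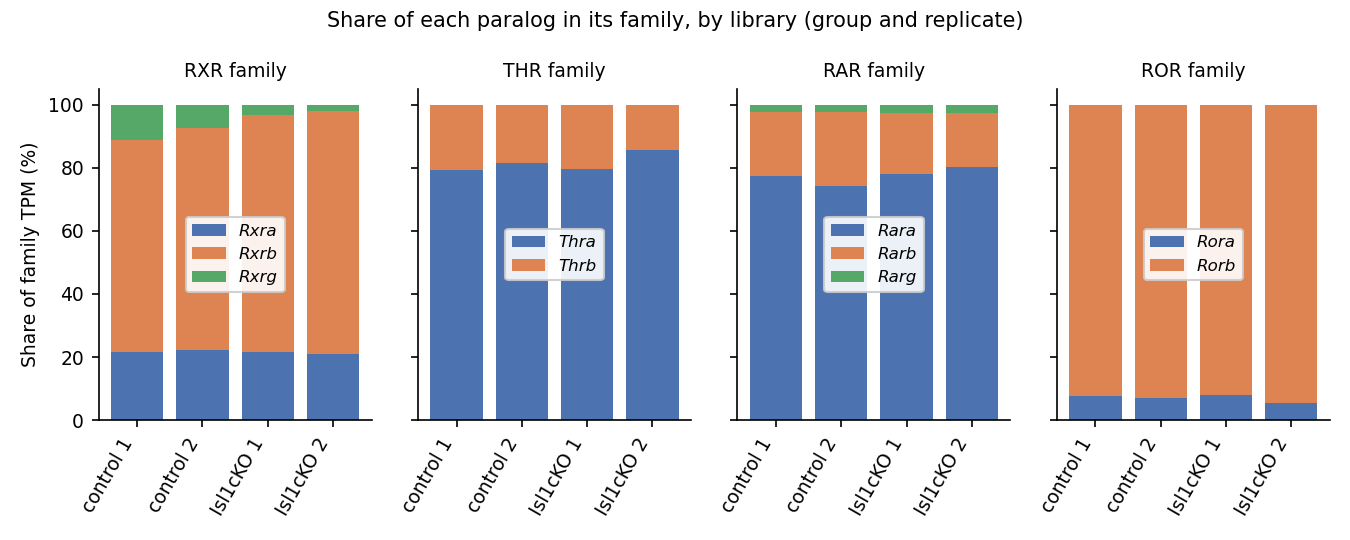
Share of each paralog (percent, stacked to the family total) in the summed TPM of the RXR, THR, RAR and ROR families, 1 bar per library. The Rxrg share is 11.0% and 7.30% in the controls and 3.13% and 1.83% in the libraries labelled Isl1cKO, while the THR and ROR shares overlap between groups.

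The levels between paralogs depended on which deposited column was read. For 7385 tested genes with a single curated RefSeq transcript, the median ratio of coverage to FPKM equalled that of the whole library (100%), and 0% of them were under 25% of it. For 5 of the 10 receptors this ratio was under 25%, namely Rxra at 15.8%, Rxrg at 24.2%, Thrb at 22.5%, Rara at 18.8% and Rora at 13.9%. Of all tested genes 3.33% were so low. The other 5 receptors lay between 77.1% for Thra and 98.3% for Rorb. Read by coverage, Rara was 0.744 to 1.08 times the level of Rarb, where by TPM it was 3.16 to 4.65 times that level. These receptors were thus close to each other by coverage and apart by TPM. Rxrb was 16.5- to 19.7-fold above Rxra by coverage, and 3.11- to 3.69-fold by TPM. Rorb, Thra and Rxrb were the 3 highest in both columns, and the middle of the order was not the same, as the plot of the order by each unit shows. The group difference in the Rxrb to Rxrg ratio was 2.06 on the log2 scale by either column. This is no separate check, since the ratio of coverage to FPKM hardly varied between libraries. It ran from 24.18% to 24.24% for Rxrg and from 84.2% to 84.4% for Rxrb. Raw coverage of Rxrg was between 2.34 and 16.7 reads per base.

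**Figure D4:**
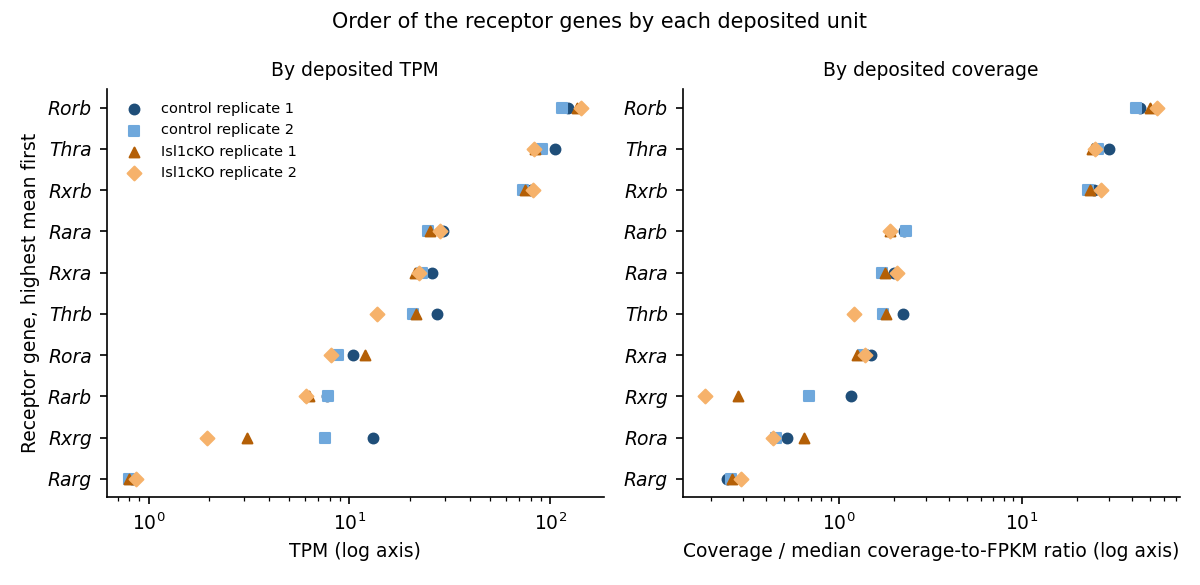
The 10 receptors ordered by mean level, by TPM (left) and by coverage divided by each library's median coverage-to-FPKM ratio (right), both on log axes, with points for the 4 libraries. Rorb, Thra and Rxrb lead in both panels, while Rarb moves from rank 8 to rank 4 and Rxra from rank 5 to rank 7.

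The receptors also share position. Thra and Rara lie 168.7 kb apart on chromosome 11 with 6 listed genes between them, and Rarb and Thrb lie 578.6 kb apart on chromosome 14 with 1 listed gene between them. In the first pair Thra was lower without overlap while Rara overlapped, and in the second Rarb was lower without overlap while Thrb overlapped. The genes of a neighbouring pair thus did not share a pattern of overlap. In estimate Rarb and Thrb were both lower, with log2 fold changes of -0.29 and -0.44, while Thra and Rara were at -0.23 and -0.01. The genes with the profiles most like that of Rxrg, by Euclidean distance between centred log2(TPM + 1) values over 4 libraries, were Frem1, Hhip and Islr2. For Thrb they were Pmel, Pde3a and Grem1, and for Rorb they were Hes5, Lrrn2 and Vrk2. For the alpha receptors they were Nfil3, Smurf1 and Adgra2 beside Rxra, Cyb5a, Slc8a2 and Taok3 beside Thra, Xrcc4, Edem2 and Trmt11 beside Rara, and A930006K02Rik, Barhl2 and Cdk3 beside Rora. For the other beta receptors they were Pcif1, Ccnb2 and Sh3bgrl3 beside Rxrb, and Tacc2, Klf4 and 2310043M15Rik beside Rarb. The distances were 0.140 to 0.171 for Rxrg, wider than for any other tested receptor, such as 0.0067 to 0.0134 for Rorb. Likeness over 4 values among 13984 genes is a description, and what lies behind it was not tested.

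Marker genes of the retinal cell types and of neighbouring tissue were read in the same libraries. Of 13 tested ganglion cell markers 12 were lower in the libraries labelled Isl1cKO and 1 was called. This was Irx3, a homeobox gene, with 28.6 and 22.1 TPM in control against 1.86 and 2.20 TPM under the Isl1cKO label (adjusted p-value 0.0119 in limma). Gap43, Nefl and Ebf3 had log2 fold changes of -1.60, -1.51 and -1.64 and were not called (adjusted p-values 0.0903, 0.145 and 0.139), while Pou4f2 was at 0.02 (adjusted p-value 0.941). The summed level of the 14 listed ganglion cell markers was 3268 to 3813 TPM in the controls and 1320 to 1921 TPM in the libraries labelled Isl1cKO, with Pou4f3 and Thy1 listed at 0 in Isl1cKO replicate 2. Of 9 photoreceptor precursor markers the 5 tested were all lower, with 0 called and a median of -0.45, although 1 was higher under each other scaling and 2 were higher without Isl1cKO replicate 2. Their summed level was 323 to 346 TPM in the controls and 265 to 324 TPM in the libraries labelled Isl1cKO. Opn1sw and Arr3 were listed at 0 in Isl1cKO replicate 2, and Pde6h and Rcvrn were listed at 0 in every library but control replicate 2. Lens markers moved with the groups as well, at 198 to 243 TPM in sum for the controls and 9.70 to 13.6 TPM for the libraries labelled Isl1cKO, with 7 of 12 called lower. In bulk retina fewer cells of a type and less RNA per cell cannot be told apart, and the part of these markers in the receptor values was not tested.

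Set against Crx, a homeobox gene of photoreceptor precursors, Thrb was at 55.5% and 49.9% of its TPM in the controls and at 56.9% and 48.7% in the libraries labelled Isl1cKO. That ratio overlapped fully, where Crx itself measured 49.1 and 41.6 TPM in control against 37.9 and 28.3 TPM under the Isl1cKO label. Thrb was at 7.86% and 6.43% of the summed photoreceptor precursor markers in the controls. In the libraries labelled Isl1cKO it was at 6.65% and 5.20%, with overlap. Against the summed ganglion cell markers Thrb was higher there without overlap, at 1.12% and 1.04% against 0.714% and 0.636% in the controls. This ratio follows the lower sum of those markers, since the TPM of Thrb itself was not higher there. Rxrg was at 26.8% and 18.2% of the TPM of Crx in the controls and at 8.19% and 6.89% in the libraries labelled Isl1cKO, without overlap. Against the summed photoreceptor precursor markers it was at 3.79% and 2.34% in the controls and at 0.956% and 0.736% under the Isl1cKO label. Against the summed ganglion cell markers, Rxrg was at 0.344% and 0.232% in the controls and at 0.161% and 0.148% in the libraries labelled Isl1cKO, a 1.86-fold difference of means. The difference remained in direction but was smaller than the 4.10-fold of its TPM. That follows from a sum that was itself lower under the Isl1cKO label, as it would for any gene. The list was chosen with earlier results known. Of its 13 tested genes 12 were lower. The other, Pou4f2, measured 126 and 124 TPM in control against 135 and 120 TPM under the Isl1cKO label. The part of ganglion cells in the Rxrg values was not tested. The exact permutation p-value of each Rxrg ratio was 0.333, the smallest possible here.

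Genes that supply or remove the ligands were read from lists of known pathway genes. The 9 pathway lists hold 85 genes, of which 62 were tested and 0 were called, with 13 at an unadjusted p-value under 0.05 in limma, against 12.1% of all tested genes. Of the 62, 43 (69.4%) were lower and 19 higher in the libraries labelled Isl1cKO, against 63.8% of all tested genes lower, with a median log2 fold change of -0.10. Of the genes named in the next paragraphs, Dio3 met the naming rule and the others were chosen after their values were seen.

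Of the 6 tested genes of thyroid hormone handling 5 were lower, 1 was higher, 0 were called and 5 were under an unadjusted p-value of 0.05, with a median of -0.48. Over the alternatives that median ran from -0.57 to -0.35. Dio3, the deiodinase that inactivates thyroid hormone, measured 67.8 and 56.3 TPM in control against 24.9 and 29.5 TPM under the Isl1cKO label. That is a 2.28-fold difference of means without overlap, at -1.16 on the log2 scale (adjusted p-value 0.0829 in limma). Dio2, the activating deiodinase, was under 0.1 TPM in every library, and Dio1 was listed at 0 in all 4. Of the 7 thyroid hormone response genes 2 were tested, Klf9 with a log2 fold change of 0.02 and Mbp with -0.68. Mbp, a myelin protein gene, measured 22.1 TPM in both controls against 13.9 and 12.9 TPM under the Isl1cKO label (adjusted p-value 0.0829 in limma).

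In the retinoid supply list, 5 of 9 tested genes were lower and 4 higher, 0 were called and the median was -0.10. The median changed sign to 0.20 with a minimum of 5 TPM, to 0.10 with FPKM and to 0.25 with coverage, where 7 or 8 of the genes were tested, and it was -0.05 without control replicate 2 or without Isl1cKO replicate 1 and -0.15 without control replicate 1. The retinaldehyde dehydrogenase Aldh1a1, which makes retinoic acid in the dorsal retina, ranged from 402 TPM in Isl1cKO replicate 2 to 1385 TPM in control replicate 2, with 725 and 925 TPM in the other libraries. The ventral enzyme Aldh1a3 was highest where Aldh1a1 was lowest, at 215 TPM in Isl1cKO replicate 2, against 98.6 to 132 TPM elsewhere. The groups overlapped for Aldh1a1 and not for Aldh1a3, and neither was called (adjusted p-values 0.665 and 0.446 in limma). Crabp1, a cellular retinoic acid binding protein, measured 644 and 615 TPM in control against 439 and 434 TPM under the Isl1cKO label (adjusted p-value 0.126 in limma). Its paralog Crabp2 went the other way, with 497 and 544 TPM in control against 590 and 683 TPM under the Isl1cKO label. The degrading enzyme Cyp26a1 overlapped between the groups, with 81.9 and 60.8 TPM in control against 62.0 and 50.3 TPM under the Isl1cKO label.

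Of 9 tested retinoic acid response genes, several of which also stand in the supply list, 6 were higher and 3 lower, with a median of 0.20 and 0 called. That median was 0.10 without control replicate 1 and 0.09 with no minimum level. Nav2, a neuron navigator gene that retinoic acid induces in neuroblastoma cells, was the lowest of them with 8.21 and 7.23 TPM in control against 3.15 and 2.13 TPM under the Isl1cKO label (log2 fold change -1.27, adjusted p-value 0.0968 in limma). The corepressor and coactivator lists had medians of -0.04 and -0.02 over 9 tested genes each, close to that of all tested genes, with 0 called. Among 13 tested relatives and partners in the nuclear receptor family 10 were lower and 3 higher, with a median of -0.04, and 7 lower and 6 higher under median-ratio scaling. In the ROR and cone list all 8 tested of 14 genes were lower, against 63.8% of all tested genes, with a median of -0.41 and 0 called. These 8 include the 5 tested photoreceptor precursor markers given above, so the list is not a separate set. The median was -0.24 without control replicate 1, -0.71 without Isl1cKO replicate 1 and -0.12 without Isl1cKO replicate 2, where 4 of 8 were higher, and 7 of 8 were lower under median-ratio and upper-quartile scaling. Its lowest gene was the cone transducin gene Gnb3, with 11.3 and 5.92 TPM in control against 5.41 and 2.61 TPM under the Isl1cKO label.

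**Figure D5:**
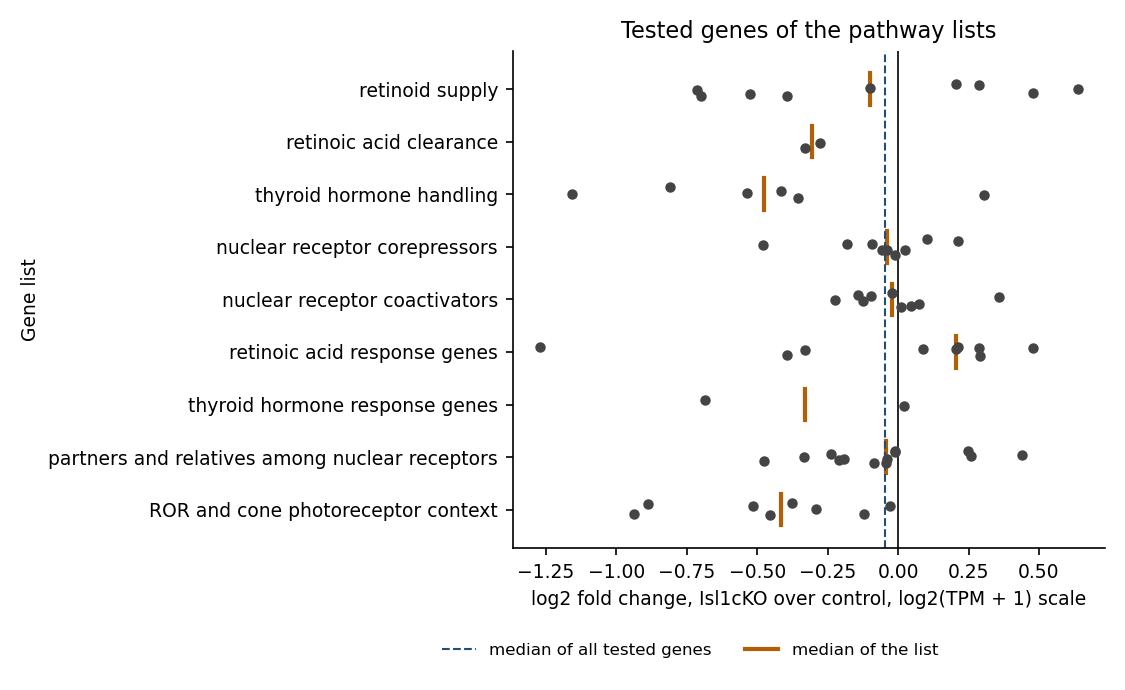
Log2 fold change (libraries labelled Isl1cKO over control, log2(TPM + 1) scale) of each tested gene of the 9 pathway lists, 1 point per gene, with the list median as an orange bar and the median of all tested genes, -0.05, as a dashed line. The medians run from -0.48 for thyroid hormone handling to 0.20 for retinoic acid response genes, and no gene shown passed the threshold.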

How the data were processed

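Strand-specific libraries of poly(A)-selected retinal RNA were sequenced, per the labels' protocols. The submitters' processing notes name Trimmomatic, FastQC, HISAT2, SAMtools, StringTie and DESeq2 and the build mm10, with no versions; the annotation and the use of strand in quantification are not given in the sources used here. The authors deposited 1 table per library with coverage (signal per base, not scaled to depth), FPKM and TPM, per the file headers. The authors scaled TPM to a sum of 1000000 per library. Counts were not used here, and neither was a count model.

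TPM of repeated rows were summed per gene. Genes at 1 TPM or more in at least 2 libraries were fitted as log2(TPM + 1) with limma (version 3.58.1, under R 4.3.3), using a genotype term alone, a constant variance prior and Benjamini-Hochberg adjustment over all 13984 genes at a threshold of 0.05. Adjusted p-values of genes are from this fit unless an alternative is named. The fit was checked on simulated data. Paralog ratios were tested by exact permutation (scipy 1.17.1). Gigabases of aligned sequence are the median ratio of coverage to FPKM. Depth in reads is unknown, so no counting intervals are given.

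The members and lists were chosen with earlier results of these data known. The naming rule took all 10 receptors, Isl1, list genes past the threshold or with at least 10 TPM and a log2 difference of 1 or more in size (up to 4 a list), and the 3 tested genes most like each receptor; a part of them is printed. Another 12 lists hold cell type markers. The alternatives were a pseudocount of 0.1, other filters, FPKM, other scalings, a mean-variance trend, the replicate block and leaving out each library; reading coverage in place of TPM was added after seeing the data. One gene of the thyroid hormone handling list is not reported here by name.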

Additional observations from a re-analysis of the deposited data

How the results depend on the processing

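The count of 69 genes called was 44 at a pseudocount of 0.1, 15 with no filter beyond a value above 0, 127 with FPKM, 110 with a mean-variance trend and 120 with coverage in place of TPM, an alternative chosen after seeing the data. Leaving out each library gave 10 to 37 genes. The cause was not tested, beyond more genes being tested with no filter and fewer libraries fitted in the last case. The receptors called were 0 under every one of these. With the replicate block 265 genes (1.9%) and 1 receptor were called, Rxrg (-1.66, adjusted p-value 0.00802). The labels give the groups the same replicate numbers but name no shared litter or day, and deviations of the libraries numbered 1 correlated at 0.126 across genes. With only 2 pairs the libraries were taken to share only a number. Among the pathway lists, 1 thyroid hormone handling gene was called with FPKM, coverage, the mean-variance trend and the block, 1 retinoic acid response gene with FPKM and the block, 1 retinoid supply gene with the trend, 1 thyroid hormone response gene (the only one tested) with FPKM, and 2 genes of the ROR and cone list with the block.

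Without the block, the log2 fold change of Rxrg ranged from -1.98 to -1.27 and from -2.02 to -1.30 as each library was left out, where the lone library of a group is assumed to vary like the others; it could not be tested by coverage, where it and Rora were under the filter. Rxra, Rxrg, Thra, Thrb, Rarb and Rorb kept their direction under each alternative run. Rara reversed with FPKM (0.0396), median-ratio scaling (0.0437), upper-quartile scaling (0.0396) and coverage (0.0297), and ranged from -0.125 to 0.112 as each library was left out, reaching 0.112 without control replicate 1 and 0.0686 without Isl1cKO replicate 1. Rxrb ran from -0.0317, without Isl1cKO replicate 2, to 0.102, and was also negative without control replicate 2 (-0.0294). Rora ran from -0.217, without Isl1cKO replicate 1, to 0.289, and was also negative without control replicate 2 (-0.0734). The difference between groups in the log2 paralog ratio kept its sign in 5 of 8 pairs under each alternative run (1 added to both TPM, coverage, and each library left out). It changed sign without Isl1cKO replicate 2 for Thra to Thrb (-0.0793) and Rorb to Rora (-0.127), and without control replicate 1 for Rara to Rarg (0.0615). Coverage is a weak alternative here, since each receptor's ratio of coverage to FPKM varied little between libraries, at most from 80.0% to 87.0% for Rarg.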

Other observations

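Across all tested genes, a low ratio of coverage to FPKM was more frequent where a gene has more curated RefSeq transcripts. In tested genes with 1 such transcript the ratio was under 50% of the library's median in 0.149% of 7385 genes. It was under 50% in 7.83% of 2976 genes with 2 transcripts and in 19.5% of 3547 genes with 3 or more. Among the receptors the ratio did not follow this number: Rxrg and Thrb, with 2 transcripts, were at 24.2% and 22.5%, and Rxrb and Rarb, with 4, were at 84.3% and 80.2%.

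Rorb was higher in both libraries labelled Isl1cKO. The 5 tested photoreceptor precursor markers were lower in estimate, with 0 called and summed levels that overlapped between the groups. Against that sum Rorb was at 35.7% in both controls and at 41.9% and 53.9% in the libraries labelled Isl1cKO. It stood at 252% and 277% of the TPM of Crx in the controls and at 359% and 505% in the libraries labelled Isl1cKO, without overlap (exact permutation p-value 0.333, the smallest possible). Hes5, a Notch effector of progenitors and the gene nearest to Rorb in profile, measured 255 and 237 TPM in control against 279 and 294 TPM under the Isl1cKO label. The retinal progenitor markers, of which Hes5 is 1, did not move as a set. Of the 11 tested 7 were higher and 4 lower, with Ccnd1 at a log2 fold change of -0.92, and their summed level overlapped between groups.

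The remaining marker lists are given as summed TPM over the listed genes, the controls first. Amacrine cell markers were at 237 to 245 and 235 to 260, with 5 of 6 tested lower. Most of that sum was Foxn4, the 1 tested gene that was higher, at 190 to 196 and 205 to 222. The overlap of the sums thus mostly follows Foxn4 and does not describe the lower genes of the list. Horizontal cell markers (5 of 6 listed) were at 84.1 to 90.3 and 80.1 to 116, with 1 of 4 lower. Retinal progenitor markers were at 6001 to 6203 and 5481 to 6373, with 4 of 11 lower, and neurogenic progenitor markers at 2403 to 2676 and 2561 to 2876, with 3 of 10 lower. Pigment epithelium markers were at 39.1 to 46.3 and 28.1 to 37.4, and periocular mesenchyme markers at 6.27 to 10.6 and 3.80 to 8.69. Endothelium markers were at 64.9 to 86.8 and 59.6 to 63.2, and microglia markers at 56.4 to 56.6 and 70.5 to 84.5. Most of the endothelium sum was Kdr, at 57.0 to 69.0 and 55.5 to 56.7. Genes of low level in that list varied more, also between the controls. Cdh5 measured 2.55 and 0.357 TPM in control against 0.211 and 0 TPM under the Isl1cKO label. Red blood cell markers were at 2903 to 4168 and 204 to 1418.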
